A study of Mus musculus with 20 samples.

Results

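Endothelial and angiogenic genes were followed in mouse plantaris muscle. The 10 genes Tek, Tie1, Kdr, Flt1, Pecam1, Cdh5, Vegfa, Angpt1, Angpt2 and Sparcl1 were chosen by name, with earlier results of these libraries known, and all 10 were found among the 54532 genes of the count tables. No measured threshold set the list, so no gene lies just inside or just outside it. Since the list was selected on these same libraries, its counts against all genes are a description of them, and nothing further is read from those counts.

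RNA was taken from the plantaris of male C57BL/6J mice aged 5 months, 10 days after sham surgery or after synergist ablation, which makes the plantaris carry more load and is called mechanical overload (MOV). All muscles received 50 µL of lentivirus during surgery, the left plantaris a scrambled control and the right plantaris a miR-1 mimic, both with a TurboGFP reporter and a CMV promoter, which is not specific to one cell type. The 4 groups of 5 libraries are named by surgery and virus, as MOV control and MOV mimic, and as sham control and sham mimic. Sham and MOV were done on different mice, while control and mimic muscles within a surgery were the 2 legs of the same mice, and the labels number the libraries without saying that equal numbers are 1 mouse.

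Vascular endothelial growth factor A, made by muscle fibres and other cells, acts on endothelial cells through the receptor tyrosine kinases VEGFR2 (Kdr) and VEGFR1 (Flt1), the latter binding ligand tightly and signalling weakly. The angiopoietins act through Tie2 (Tek), with Angpt1 the activating ligand that keeps vessels quiet and Angpt2 a context-dependent ligand released by endothelial cells, and Tie1 is the orphan receptor that modulates Tie2. Capillaries of skeletal muscle lie along the fibres, and their endothelial cells hold together through VE-cadherin (Cdh5) and PECAM-1 (Pecam1).

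In GRCm38.p6 the annotation placed the ligand genes Vegfa (ENSMUSG00000023951) at chr17:46016993-46032377, Angpt1 (ENSMUSG00000022309) at chr15:42424667-42676977 and Angpt2 (ENSMUSG00000031465) at chr8:18690263-18741562. The receptor genes were Kdr (ENSMUSG00000062960) at chr5:75932827-75979072, Flt1 (ENSMUSG00000029648) at chr5:147561604-147726438, Tek (ENSMUSG00000006386) at chr4:94739086-94874976 and Tie1 (ENSMUSG00000033191) at chr4:118471191-118489849. The junction and matrix genes were Pecam1 (ENSMUSG00000020717) at chr11:106654213-106715281, Cdh5 (ENSMUSG00000031871) at chr8:104101613-104144504 and Sparcl1 (ENSMUSG00000029309) at chr5:104079108-104114088. Counts were deposited per gene, so that isoforms, such as the soluble and membrane forms of Flt1, were not separated.

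The proximal promoters of the 4 receptor genes are shown because endothelial promoters are known for sites of the ETS family. The 4 were chosen after their values below were seen, and a link between promoter and values was not tested. Promoter windows were found in RefSeq (GRCm38.p6) for 5 of the 10 members, from 250 bases before to 50 after a start site, each 300 bases on the gene's own strand. Capitals mark the ETS core GGAA read on either strand, so that it appears as GGAA or as TTCC. The window of Tek was chr4:94739039-94739338 on the plus strand, that of Tie1 chr4:118489800-118490099 on the minus strand, that of Kdr chr5:75978406-75978705 on the minus strand, and that of Flt1 chr5:147725962-147726261 on the minus strand.
Tek: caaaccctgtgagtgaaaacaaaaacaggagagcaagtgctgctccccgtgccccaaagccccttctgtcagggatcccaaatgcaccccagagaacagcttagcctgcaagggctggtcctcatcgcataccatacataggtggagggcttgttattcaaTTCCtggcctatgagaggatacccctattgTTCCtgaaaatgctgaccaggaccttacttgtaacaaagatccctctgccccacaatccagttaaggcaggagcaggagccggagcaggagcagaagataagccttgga
Tie1: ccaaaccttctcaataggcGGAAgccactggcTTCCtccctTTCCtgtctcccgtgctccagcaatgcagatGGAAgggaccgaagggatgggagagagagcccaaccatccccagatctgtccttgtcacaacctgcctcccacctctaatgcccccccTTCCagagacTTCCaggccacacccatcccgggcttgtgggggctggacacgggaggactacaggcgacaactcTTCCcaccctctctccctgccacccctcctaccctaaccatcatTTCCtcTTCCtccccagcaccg
Kdr: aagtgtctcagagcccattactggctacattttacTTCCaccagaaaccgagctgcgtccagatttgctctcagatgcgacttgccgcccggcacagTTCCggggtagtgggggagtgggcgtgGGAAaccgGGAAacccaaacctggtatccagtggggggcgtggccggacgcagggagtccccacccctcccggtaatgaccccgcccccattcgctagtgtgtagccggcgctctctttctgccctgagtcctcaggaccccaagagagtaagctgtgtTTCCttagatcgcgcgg
Flt1: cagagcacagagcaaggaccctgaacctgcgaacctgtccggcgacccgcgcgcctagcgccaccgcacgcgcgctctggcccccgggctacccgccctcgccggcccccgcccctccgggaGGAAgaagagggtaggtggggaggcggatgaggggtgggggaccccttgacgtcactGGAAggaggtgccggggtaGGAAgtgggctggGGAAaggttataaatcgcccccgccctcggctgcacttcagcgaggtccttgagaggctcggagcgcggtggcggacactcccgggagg
Tie1 held 9 cores, and 1.59% of all 32851 promoter windows held as many. Kdr held 5 (28.6% of windows held as many), Flt1 held 4 (46.3%) and Tek held 2 (84.6%), so only the window of Tie1 lay far above the median of 3 cores. At least 1 core was present in 96% of all windows. The core of the hypoxia response element, ACGTG or GCGTG on either strand, was found 2 times in Kdr, 1 time in Flt1 and 0 times in Tek and Tie1, and 43.8% of all windows held it. The windows found for Vegfa, whose sequences are not shown, held 6 and 3 ETS cores (15.7% and 66.3% of windows held as many). They held 0 and 2 hypoxia cores. These are matches of letters and not shown binding sites.

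Libraries held between 12036360 and 23056525 counts on genes, with a median of 16940547.5. The members were counted well at this depth, from 194 counts upwards for Tek and from 245 upwards for Tie1, apart from Angpt2, which had 0 counts in 1 MOV mimic library. That library, MOV mimic 4, was the one with 12036360 counts. It also had the fewest detected genes, 15561 against 18768 to 22300 in the others. Pecam1, Cdh5, Kdr, Tek and Tie1 had counts in every library, and 20 of 20 further endothelial junction and surface genes were above 0 in every group. Markers of other cells in whole muscle were detected too. Vegfa and Angpt1 are not specific to endothelial cells. Reads over a gene that overlaps another one cannot be assigned with certainty, because the strand setting of the counting is not given in the sources used here. In the GRCm38.p6 annotation Angpt2 lies within the span of the protein-coding gene Mcph1, and Kdr, Flt1, Cdh5, Angpt1 and Sparcl1 each overlap 1 long non-coding RNA gene.

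A set of 4 libraries stood apart in interstitial markers. Summed over 10 leukocyte markers, CPM (counts per 1000000 after TMM scaling) was 199 and 200 in library 1 of sham control and of sham mimic, and 194 and 211 in libraries 4 and 5 of MOV control, against 344 to 855 in the other 16 libraries. Summed CPM of 8 fibroblast and fibro-adipogenic markers was also the lowest of all in these 4 libraries, at 1852, 2185, 3708 and 2570. The results of the members that rest on these libraries are therefore given with and without them, as are counts or medians of most pathway lists and other cell types. Per-library values are given for all. In these whole-muscle samples, fewer endothelial cells and less RNA of a gene per cell cannot be told apart.

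Expressed per kilobase of exon in sham control, the levels ordered the members from the matrix glycoprotein gene Sparcl1 at 61.7 ± 4.49 CPM per kb and Vegfa at 61.7 ± 15.1 down to Angpt2 at 1.33 ± 0.624 (SD, n = 5). Between them lay Pecam1 at 21.9 ± 2.46, Cdh5 at 20.6 ± 2.59, Kdr at 7.22 ± 1.63, Tie1 at 6.70 ± 1.02, Tek at 6.02 ± 0.793, Angpt1 at 4.37 ± 0.867 and Flt1 at 3.56 ± 0.981. Neighbours in this order overlapped in their libraries, except that Vegfa lay wholly above Pecam1 and Cdh5 wholly above Kdr. The junction genes thus stood above all 4 receptor genes, and the receptors above Angpt2 apart from overlaps between Flt1 and Angpt2.

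The first question was how the members differed between overloaded and sham muscle, with either virus. Of the 10 genes, 9 had a lower mean CPM in both MOV groups than in both sham groups, the exception being Angpt1. None passed an adjusted p of 0.05 in the quasi-likelihood test of edgeR over all genes, in MOV control against sham control (0 of 10 members, 0.00668% of 14974 genes) or in MOV mimic against sham mimic (0 of 10, 0% of 14918 genes). At an unadjusted p under 0.05, 6 of 10 were lower in MOV with the control virus, where 9.15% of all genes were, and 8 of 10 with the mimic virus, where 6.08% were. The latter count was 5 of 10 without sham mimic 5 or without MOV mimic 3. DESeq2 called 4 of 10 lower with the control virus (Vegfa, Kdr, Flt1 and Sparcl1, against 3.48% of genes) and 4 of 10 with the mimic virus (Tek, Flt1, Cdh5 and Sparcl1, against 0.637%). The median log2FC of the members was -0.55 with the control virus and -0.54 with the mimic virus, and that of all genes tested was 0.04 and 0.02.

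**Figure D1:**
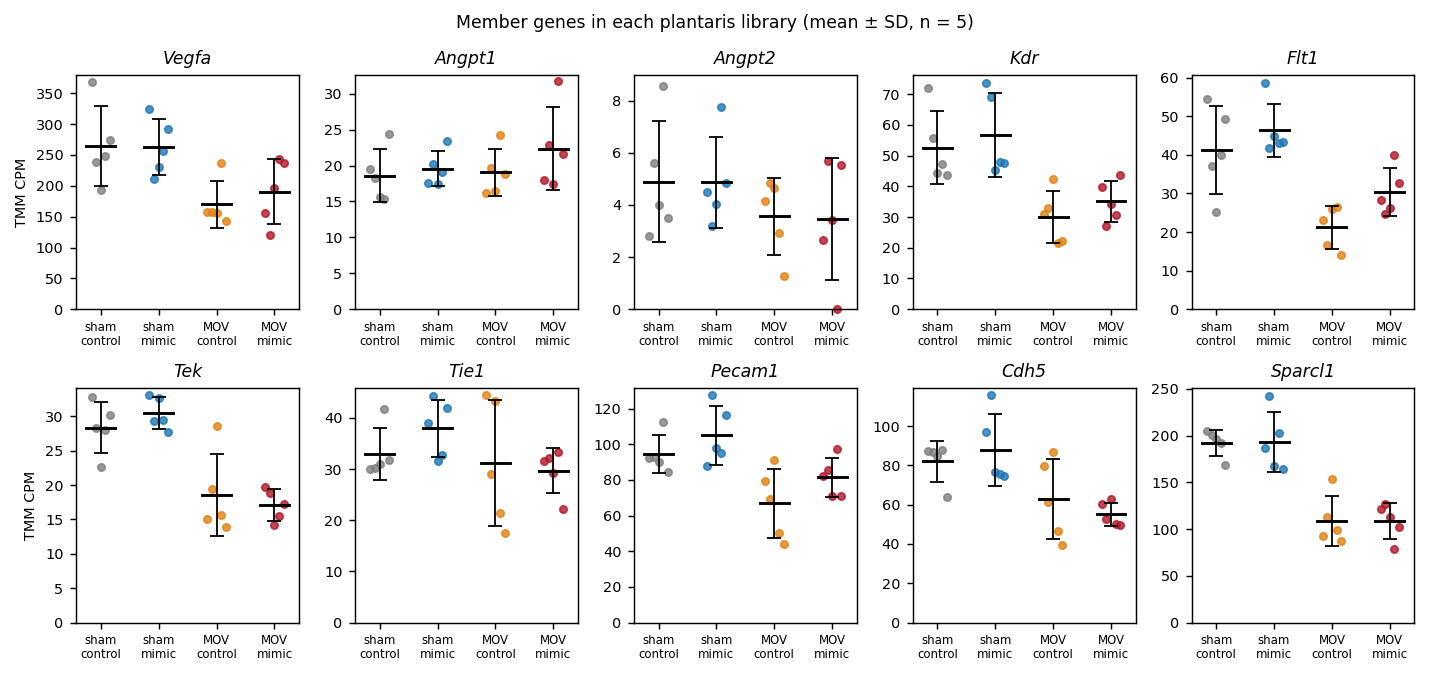
Each panel plots one member gene, with TMM CPM on a linear axis from 0 against the 4 groups; points are the 5 libraries of a group, the horizontal bar is their mean and the error bar the SD. Sparcl1 sits between 164 and 243 CPM in the sham libraries and between 78.5 and 153 in the MOV libraries, while Angpt1 overlaps in all 4 groups.

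Without the 4 libraries low in leukocyte markers, none of the 10 members passed in edgeR in either comparison, and 33 genes did in all with the control virus. Lower at an unadjusted p under 0.05 were then 4 of 10 members with the control virus (Kdr, Flt1, Vegfa and Sparcl1), beside 10.8% of all genes, and 7 of 10 with the mimic virus, beside 3.64%. With the control virus the log2FC of Cdh5 went from -0.38 to -0.11 and that of Pecam1 from -0.49 to -0.27 when these libraries were left out, and that of Tie1 changed sign from -0.07 to 0.19. That of Kdr went from -0.80 to -0.46 (SE 0.15), that of Tek from -0.60 to -0.40 (SE 0.21), that of Flt1 from -0.95 to -0.82 and that of Sparcl1 from -0.81 to -0.69, while that of Vegfa was -0.63 with and without them. DESeq2 then called 3 of 10 members lower with the control virus (Flt1, Vegfa and Sparcl1, beside 4.46% of genes lower) and 2 of 10 with the mimic virus (Tek and Sparcl1, beside 0.169%). The libraries of 3 of 10 members did not overlap and were lower with the control virus (Kdr, Vegfa and Sparcl1, beside 9.14% of genes), as were those of 5 of 10 with the mimic virus, beside 1.96%. Fewer libraries, 3 MOV and 4 sham, entered this control-virus fit.

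Among the ligands, Vegfa was the most abundant. Its CPM in sham control was 368, 239, 194, 249 and 274 in libraries 1 to 5, and in MOV control it was 157, 157, 156, 237 and 143. In sham mimic it was 325, 211, 231, 257 and 292, and in MOV mimic 156, 120, 196, 243 and 237. All MOV control libraries but number 4 lay below all sham control libraries, whereas with the mimic virus 2 of 5 MOV libraries lay within the sham range of 211 to 325. The log2FC was -0.63 with the control virus (SE 0.19, edgeR adjusted p = 0.115, DESeq2 adjusted p = 0.0327) and -0.46 with the mimic virus (SE 0.20, edgeR adjusted p = 0.358, DESeq2 adjusted p = 0.263).

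Angpt1, the Tie2 agonist made mainly by perivascular and other stromal cells, was the member without a lower mean in MOV. It ran from 15.3 to 24.4 CPM in sham control and from 16.1 to 24.2 in MOV control, and from 17.4 to 23.4 in sham mimic and from 17.4 to 31.8 in MOV mimic. The groups overlapped almost wholly, with a log2FC of 0.04 (SE 0.17) and of 0.20 (SE 0.18). Without the low-marker libraries the control-virus value of Angpt1 was -0.10 (SE 0.19). Angpt2, its partial antagonist, was the lowest member. It had 2.80, 5.63, 3.99, 8.57 and 3.49 CPM in sham control and 4.14, 4.83, 4.63, 2.92 and 1.29 in MOV control. In sham mimic it ran from 3.19 to 7.76 CPM, and in MOV mimic it reached 5.68 CPM and was at 0 counts in library 4, which allows up to 3 counts or 0.221 CPM there by counting error alone. Its log2FC of -0.44 (SE 0.39) and -0.47 (SE 0.68) carried the widest errors of the 10 members. Its counts were between 18 and 179 in the other 19 libraries, and its sham control libraries alone ranged from 2.80 to 8.57 CPM, so a difference was not detectable beside the spread of these muscles.

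Of the VEGF receptors, Kdr, the main signalling receptor of endothelial cells, had 71.9, 55.8, 44.2, 47.2 and 43.8 CPM in sham control and 31.1, 32.9, 42.3, 21.5 and 22.2 in MOV control. It had 73.7, 69.2, 45.2, 47.9 and 47.5 CPM in sham mimic and 39.8, 26.9, 34.3, 30.7 and 43.6 in MOV mimic. Every MOV library lay below every sham library of the same virus, the closest pairs being 42.3 against 43.8 and 43.6 against 45.2. The log2FC of Kdr was -0.80 with the control virus (SE 0.20, edgeR adjusted p = 0.0763, DESeq2 adjusted p = 0.00804) and -0.68 with the mimic virus (SE 0.18, edgeR adjusted p = 0.268, DESeq2 adjusted p = 0.0517). Without the low-marker libraries the control-virus value was -0.46 (edgeR adjusted p = 0.131), which DESeq2 did not call.

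Flt1, the decoy-like VEGF receptor, had 54.5, 37.1, 25.2, 40.0 and 49.3 CPM in sham control and 22.99, 16.6, 26.0, 26.5 and 14.2 in MOV control. Only sham control 3 lay inside the MOV range there. With the mimic virus it had 58.6, 41.7, 44.8, 43.2 and 43.4 CPM in sham and 28.4, 24.6, 26.2, 39.9 and 32.6 in MOV, and these groups did not overlap. Its log2FC of -0.95 (SE 0.23, edgeR adjusted p = 0.0679, DESeq2 adjusted p = 0.00495) was the lowest of the 10 members with the control virus, and with the mimic virus it was -0.60 (SE 0.15, edgeR adjusted p = 0.267, DESeq2 adjusted p = 0.0443).

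The 2 Tie receptors differed in their pattern. Tek had 32.8, 28.3, 22.6, 28.0 and 30.2 CPM in sham control and 15.1, 19.5, 28.6, 15.6 and 13.9 in MOV control, where MOV library 3 reached into the sham range. It had 33.1, 29.3, 32.6, 29.5 and 27.7 CPM in sham mimic and 19.7, 18.9, 14.1, 15.6 and 17.2 in MOV mimic, a gap of 19.7 to 27.7 without a library in it. The log2FC of Tek was -0.60 (SE 0.20, edgeR adjusted p = 0.136, DESeq2 adjusted p = 0.0570) and -0.82 (SE 0.13, edgeR adjusted p = 0.141, DESeq2 adjusted p = 7.54e-05). Its unadjusted edgeR p in the mimic comparison was 3.79e-05, the lowest of the 10 members in any comparison.

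Tie1 had 30.0, 30.2, 31.0, 41.8 and 31.8 CPM in sham control and 44.5, 29.1, 43.4, 21.4 and 17.5 in MOV control, so that the MOV libraries spread to both sides of the sham ones. It had 38.9, 44.2, 31.6, 32.8 and 42.0 CPM in sham mimic and 31.5, 32.1, 29.2, 33.3 and 22.3 in MOV mimic, with overlap. The log2FC of Tie1 was -0.07 (SE 0.24, edgeR adjusted p = 0.907) and -0.35 (SE 0.14, edgeR adjusted p = 0.337), and with raw library totals in place of TMM the ratio of the means of Tie1 with the control virus was on the other side of 0, at 0.11 on the log2 scale. The log2 ratio of Tek to Tie1 within a library, on the CPM scale, was -0.21 ± 0.29 in sham control and -0.71 ± 0.49 in MOV control, and with the mimic virus -0.31 ± 0.28 in sham and -0.79 ± 0.30 in MOV (SD, n = 5). This ratio is given as a description with no test.

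The junction genes showed a wide spread in MOV control. Pecam1, an adhesion receptor of endothelial cells, platelets and leukocytes, had 92.2, 92.8, 90.3, 112 and 84.3 CPM in sham control and 79.2, 69.3, 91.1, 50.4 and 44.3 in MOV control. Its MOV control values below 60 came from libraries 4 and 5, which were also low in leukocyte and fibroblast markers, and the part of that in the difference was not tested. With the mimic virus Pecam1 ranged from 87.7 to 128 CPM in sham and from 70.9 to 97.4 in MOV, with overlap, and its log2FC was -0.49 (SE 0.19, edgeR adjusted p = 0.188) and -0.36 (SE 0.14, edgeR adjusted p = 0.323).

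Cdh5, which encodes VE-cadherin of the adherens junction, had 87.3, 86.6, 84.9, 87.9 and 63.7 CPM in sham control and 79.7, 61.6, 87.0, 46.8 and 39.3 in MOV control. As for Pecam1 and Tie1, MOV control 4 and 5 were the lowest libraries. With the mimic virus it had 97.0, 116, 76.4, 75.4 and 74.5 CPM in sham and 60.3, 52.5, 62.7, 50.05 and 49.8 in MOV, and these groups did not overlap. The log2FC of Cdh5 was -0.38 (SE 0.20, edgeR adjusted p = 0.352) and -0.66 (SE 0.15, edgeR adjusted p = 0.260, DESeq2 adjusted p = 0.0104).

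Sparcl1, a secreted relative of SPARC that is made by endothelial and mural cells among others, gave nearly the same log2FC with both viruses. It had 204, 200.1, 196, 192 and 169 CPM in sham control and 92.1, 113, 153, 98.5 and 87.1 in MOV control. It had 187, 243, 168, 202 and 164 CPM in sham mimic and 121, 127, 113, 78.5 and 102 in MOV mimic, so that no MOV library reached a sham library with either virus. The log2FC of Sparcl1 was -0.81 (SE 0.16, edgeR adjusted p = 0.0554, DESeq2 adjusted p = 0.00016) and -0.82 (SE 0.16, edgeR adjusted p = 0.213, DESeq2 adjusted p = 0.00114). Counted over the members, 2 of 10 did not overlap and were lower with the control virus (Kdr and Sparcl1, where 2.45% of all genes did so) and 5 of 10 with the mimic virus (Tek, Kdr, Flt1, Cdh5 and Sparcl1, where 1.74% did so).

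**Figure D2:**
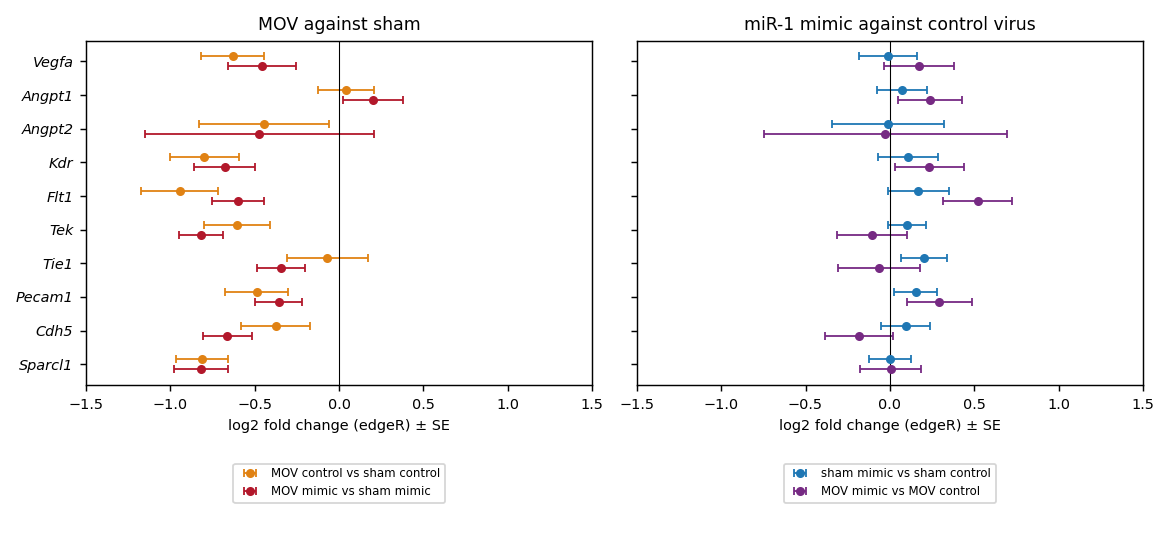
Points are the edgeR log2 fold changes of the 10 members with their standard errors, for MOV against sham with each virus on the left and for the miR-1 mimic against the control virus within each surgery on the right. On the left 9 of 10 points lie below 0 for each virus, from -0.95 for Flt1 to -0.07 for Tie1 with the control virus, and on the right the points lie between -0.18 and 0.52.

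Scaling by raw library totals moved the median log2 ratio of all genes to 0.19 with the control virus and to 0.22 with the mimic virus. Relative to it the median member was at -0.56 in both comparisons, against -0.59 and -0.56 with TMM. Under raw totals 8 of 10 members had a lower mean in MOV control than in sham control, and 9 of 10 in MOV mimic than in sham mimic. No member then separated the libraries of MOV control from those of sham control, and 3 of 10 (Tek, Kdr and Cdh5) separated MOV mimic from sham mimic, where 1.54% and 0.516% of all genes did so.

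The second question was whether the mimic virus changed the members. In the paper's qPCR the mimic virus did not raise miR-1 in sham muscle, and in MOV it made the fall of miR-1 smaller. The sham comparison of viruses is therefore not a test of raised miR-1. In MOV mimic against MOV control 0 of 10 passed in edgeR or DESeq2 (0% of 15220 genes in edgeR), and no member separated the groups (0.762% of genes did). Flt1 was the one member with an unadjusted p under 0.05, which 4.21% of genes had, with 30.3 ± 6.15 CPM in MOV mimic against 21.2 ± 5.61 in MOV control (SD, n = 5), a log2FC of 0.52 (SE 0.20, edgeR unadjusted p = 0.0233, adjusted p = 0.999, DESeq2 adjusted p = 0.813). The other members lay between -0.18 for Cdh5 (SE 0.20) and 0.29 for Pecam1 (SE 0.19). This fit treated the 2 legs of a mouse as independent. With the replicate number as a block, 0 of 10 members passed in edgeR or DESeq2. Flt1 and Angpt1 were higher in MOV mimic in 5 of 5 equal numbers. Without MOV control 4 and 5, which were low in leukocyte markers, 0 of 10 passed in edgeR and 2 of 10 had an unadjusted p under 0.05, beside 3.35% of genes. These were Flt1 at 0.49 (SE 0.21, edgeR unadjusted p = 0.0383, adjusted p = 0.999) and Cdh5, which moved to -0.45 (SE 0.16, edgeR unadjusted p = 0.0138, adjusted p = 0.999). Tie1 moved from -0.07 to -0.38 (SE 0.18), Pecam1 from 0.29 to 0.04 and Kdr from 0.23 to 0.00.

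In sham mimic against sham control the log2FC of the members ran from -0.01 to 0.20, with standard errors from 0.11 to 0.33. Without library 1 of both sham groups they ran from -0.11 to 0.21. None had an unadjusted p under 0.05 with all libraries (1.72% of genes did) or without these, none passed in edgeR (0% of 14746 genes) or DESeq2, and none separated the groups (0.339% of genes did). The third question was whether the response to MOV differed between the viruses. In the interaction of surgery and virus over 20 libraries the members ran from -0.29 for Cdh5 to 0.34 for Flt1 on the log2 scale, 0 of 10 passed in edgeR (0% of 16166 genes) or DESeq2, and 0 of 10 had an unadjusted p under 0.05 (2.64% of genes did). Without the 4 low-marker libraries the interaction ran from -0.53 for Tie1 (SE 0.24) and -0.53 for Cdh5 (SE 0.23) to 0.30 for Flt1 (SE 0.28), with an unadjusted p of 0.0383 for Tie1 and 0.0324 for Cdh5 in edgeR (2.62% of genes were under 0.05) and an edgeR adjusted p of 1.00 for all 10. The calls that DESeq2 made with one virus and not with the other, as for Tek and Vegfa, therefore did not come with a detected difference between the viruses.

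Around the members, 82 genes of 8 pathway lists were counted, of which 77 were tested in each comparison of MOV with sham and 76 in both. None passed in edgeR. With the control virus 16 of 77 were lower and 2 higher at an unadjusted p under 0.05, where 9.15% and 9.06% of all genes were. Of these 77, 53 had a negative log2FC, as did 45.8% of all genes, the median was -0.20, and DESeq2 called 6 lower and 0 higher, where it called 3.48% of all genes lower and 2.62% higher. In the mimic comparison 16 of 77 were lower and 1 higher, where 6.08% and 7.31% of all genes were. Here 56 were negative, beside 48.2% of all genes, the median was -0.18, and DESeq2 called 3 lower and 0 higher, beside 0.637% and 0.845% of all genes. Without the 4 low-marker libraries the control-virus values of these lists moved to 42 of 77 negative (48.5% of all genes were) with a median of -0.02. At an unadjusted p under 0.05, 10 were then lower and 9 higher, beside 10.8% and 9.48% of genes. With the mimic virus they were 59 of 78 negative (48.3% of genes) with a median of -0.23, and 16 lower and 1 higher, beside 3.64% and 5.04%. DESeq2 called 6 lower and 2 higher with the control virus in these fits, beside 4.46% and 2.30% of all genes, and 1 lower with the mimic virus, beside 0.169%.

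By list, the endothelial junction and surface genes had 17 of 20 negative with the control virus (median -0.28, 5 lower at an unadjusted p under 0.05) and 16 of 20 with the mimic virus (median -0.26, 7 lower). Of all genes, 45.8% and 48.2% were negative in these comparisons, and 9.15% and 6.08% were lower at that p. Endothelial transcription factors had 12 of 13 negative (median -0.27) and 10 of 13 (median -0.16). The VEGF family and coreceptors had a median of -0.34 over 7 genes and then of -0.04, and the Tie receptor regulators one of -0.01 over 5 genes and then of -0.30. Notch and tip cell genes had a median of -0.03 and then of -0.14, hypoxia sensing genes -0.07 and -0.13, and the SPARC family 0.05 and -0.31. Angiogenesis inhibitors had the highest median of the 8 lists with the control virus, at 0.62 with 2 of 8 negative, and with the mimic virus 4 of 8 were negative with a median of -0.01. Without the low-marker libraries the control-virus median of the junction and surface genes was -0.17 with 16 of 20 negative, 2 lower and 1 higher at an unadjusted p under 0.05. That of the transcription factors was -0.08 with 8 of 13 negative, that of the VEGF family -0.08 and that of the inhibitors 0.64. The Notch and tip cell list was at 0.19 with 3 of 12 negative, hypoxia sensing at -0.08 and the SPARC family at 0.19. With the mimic virus the junction and surface genes then had a median of -0.33 and 7 lower.

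The genes that DESeq2 called in these lists are named after their values were seen, and all were lower in MOV. With the control virus they were Aqp1, the water channel of capillary endothelium (log2FC -1.16, SE 0.21), Cd36, the fatty acid transporter and thrombospondin receptor (-1.16, SE 0.23), Klf4, a flow-responsive transcription factor (-1.29, SE 0.30), Egln1, the prolyl hydroxylase PHD2 that marks HIF for destruction (-0.76, SE 0.19), Ptprb, the phosphatase VE-PTP that acts on Tie2 (-0.67, SE 0.16), and Vegfb, a ligand of Flt1 (-0.54, SE 0.16). In the mimic comparison they were Cd36 (-0.84, SE 0.22), Ptprb (-0.67, SE 0.16) and Adgrl4, an adhesion receptor of endothelial cells (-0.74, SE 0.16). Their adjusted p values in edgeR were between 0.0551 and 0.116 with the control virus and between 0.260 and 0.267 with the mimic virus. With those low-marker libraries left out, DESeq2 no longer called Ptprb with the control virus (adjusted p = 0.0660), nor Ptprb (0.111) or Cd36 (0.112) with the mimic virus, and it called the others named here. It then also called Egln2, another prolyl hydroxylase, lower, and Aplnr, the apelin receptor, and Vash2, a vasohibin, higher with the control virus.

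**Figure D3:**
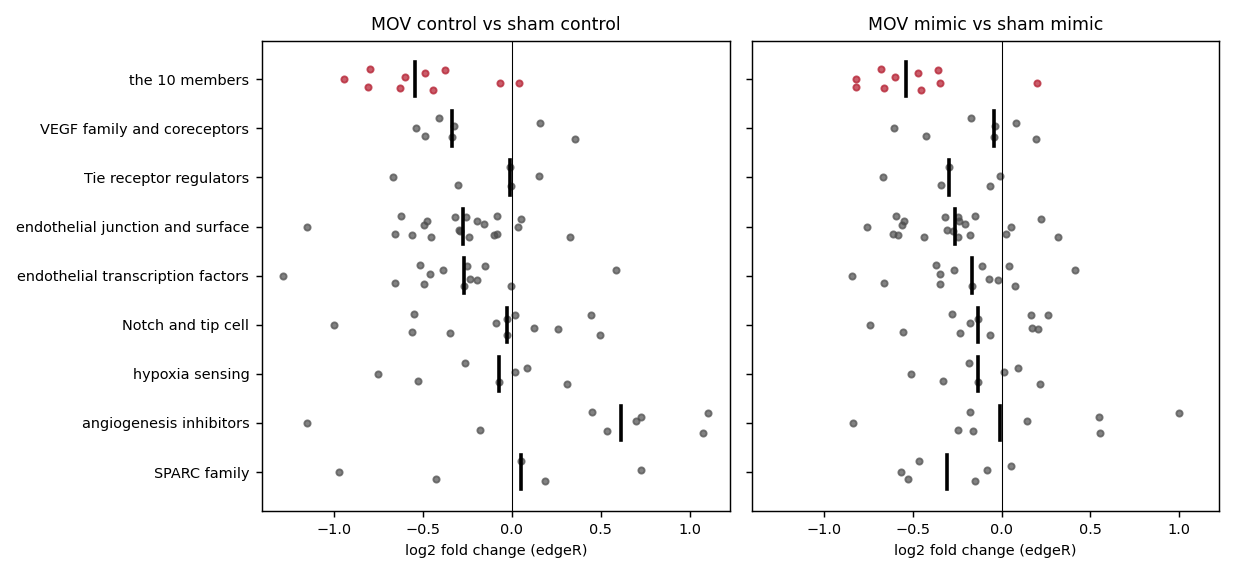
Each point is the edgeR log2 fold change of one gene of MOV against sham, with the control virus on the left and the mimic virus on the right, and the black bar is the median of its list; the 10 members are in red. The bar of the members is at -0.55 and -0.54, that of the endothelial junction and surface genes at -0.28 and -0.26, and that of the angiogenesis inhibitors at 0.62 and -0.01.

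Markers of other cells moved beside these genes in part. Summed CPM of 11 pericyte and smooth muscle markers was 654 to 848 in sham control and 528 to 695 in MOV control, and 673 to 882 in sham mimic and 514 to 603 in MOV mimic, with no marker at 0 in a whole group, and 3 of 11 were lower in MOV at an unadjusted p under 0.05 in each comparison (9.15% and 6.08% of all genes were). DESeq2 called 3 pericyte and smooth muscle markers lower with the control virus and 1 with the mimic virus, and their median log2FC was -0.02 and -0.39. Myofibre markers, summed over 10 genes, ran from 137056 to 217651 CPM in sham control and from 105874 to 182379 in MOV control, and from 131485 to 216885 in sham mimic and from 80661 to 156459 in MOV mimic. Of these 10 myofibre markers, 6 were negative with the control virus (median log2FC -0.30, 2 lower and 1 higher at an unadjusted p under 0.05, 1 called lower by DESeq2) and 9 with the mimic virus (median -0.41, 2 lower, 0 called). Without the 4 low-marker libraries, 6 of 10 were lower at an unadjusted p under 0.05 with the control virus, beside 10.8% of genes, and 4 were called lower by DESeq2, beside 4.46%, while with the mimic virus 9 were negative and 0 passed either. Red blood cell markers, 3 of them, ran from 32.7 to 92.9 CPM in sham control and from 12.2 to 54.0 in MOV control, and from 26.3 to 91.1 in sham mimic and from 16.1 to 65.4 in MOV mimic. All 3 were lower with the control virus at an unadjusted p under 0.05, with a median log2FC of -1.30 and 1 called by DESeq2, and none was with the mimic virus, with a median of -0.16. Without the 4 low-marker libraries, 1 of 3 red blood cell markers was lower with the control virus at an unadjusted p under 0.05, and DESeq2 called 0. Leukocyte markers overlapped, with 199 to 855 in sham control and 194 to 714 in MOV control, and with 200 to 770 in sham mimic and 397 to 787 in MOV mimic. Of 9 leukocyte markers tested, 3 were higher in MOV mimic than in sham mimic at an unadjusted p under 0.05 (7.31% of all genes were) and 2 were higher than in MOV control (2.46% of all genes were), where their median log2FC was 0.50. Summed leukocyte CPM was 194 and 211 in MOV control 4 and 5. It was 623, 533 and 714 in the other MOV control libraries, within the 397 to 787 of MOV mimic. Leukocyte counts of this comparison without MOV control 4 and 5 are not given. Fibroblast and fibro-adipogenic markers had a median log2FC of -0.47 with the control virus, with 6 of 8 negative and 2 called lower by DESeq2, and of -0.26 with the mimic virus, with 6 of 8 negative and 1 called lower. DESeq2 called 3.48% and 0.637% of all genes lower. Without the low-marker libraries it called 3 of these markers lower with the control virus and 0 with the mimic virus, beside 4.46% and 0.169% of genes. All 6 myogenic progenitor and regeneration markers were above 0 in MOV against sham, with a median of 1.29 with the control virus, 2 of them called higher by DESeq2, and of 0.61 with the mimic virus, with 0 called. Of 8 cell cycle genes, 1 had a negative log2FC in each comparison, with medians of 0.52 and 0.58, and 1 and 2 were higher at an unadjusted p under 0.05 (9.06% and 7.31% of all genes were). DESeq2 called 0 of them with all libraries and 2 higher with the control virus without the low-marker ones, beside 2.30% of genes. Overlap was also seen in 5 lymphatic endothelial markers, with 14.9 to 47.8 CPM in sham control and 16.5 to 39.2 in MOV control. Platelet markers, 6 of them, ran from 19.1 to 45.1 CPM in sham control and from 7.31 to 35.6 in MOV control, and from 17.7 to 35.1 in sham mimic and from 7.23 to 25.6 in MOV mimic. One platelet marker was at 0 throughout sham mimic and 1 throughout MOV control. Of the 4 platelet markers tested, 3 were negative with the control virus, with a median log2FC of -0.41 and none called, and 4 with the mimic virus, with a median of -0.59 and 1 called lower by DESeq2. Without the low-marker libraries DESeq2 called 0 platelet markers with the mimic virus. Without the 4 low-marker libraries the median log2FC with the control virus was 0.23 for pericyte and smooth muscle, -0.52 for myofibre, -1.13 for red blood cell, -0.21 for leukocyte, -0.33 for fibroblast and fibro-adipogenic, 1.00 for myogenic progenitor and regeneration, and -0.17 for platelet markers. With the mimic virus it was -0.32, -0.30, -0.03, 0.05, -0.43, 0.52 and -0.75 in the same order. The part of these cells in the members' differences was not tested.

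Within groups, the members fell into blocks when each library was taken relative to its group mean. Over the 20 libraries, which share depth and scaling for all genes, Pearson's r of log2 CPM was 0.898 between Tie1 and Pecam1, 0.788 between Tie1 and Cdh5, 0.71 between Pecam1 and Cdh5 and 0.728 between Kdr and Cdh5. Vegfa stood outside that block, with r of 0.746 to Flt1, -0.199 to Tie1 and -0.218 to Pecam1. The lowest r was -0.569 between Angpt1 and Angpt2, and the median of the 45 pairs was 0.244. The value for Angpt1 and Angpt2 leaned on MOV mimic 4, which had 0 counts of Angpt2 and the highest Angpt1 of the 20 libraries, and without it r was -0.154. Without the 4 low-marker libraries, r was 0.850 between Tie1 and Pecam1 and 0.545 between Tie1 and Cdh5, and the median of the pairs was 0.137. It was then 0.496 between Pecam1 and Cdh5, 0.580 between Kdr and Cdh5 and 0.639 between Flt1 and Vegfa. These are descriptions over libraries, in which legs of one mouse are not independent.

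**Figure D4:**
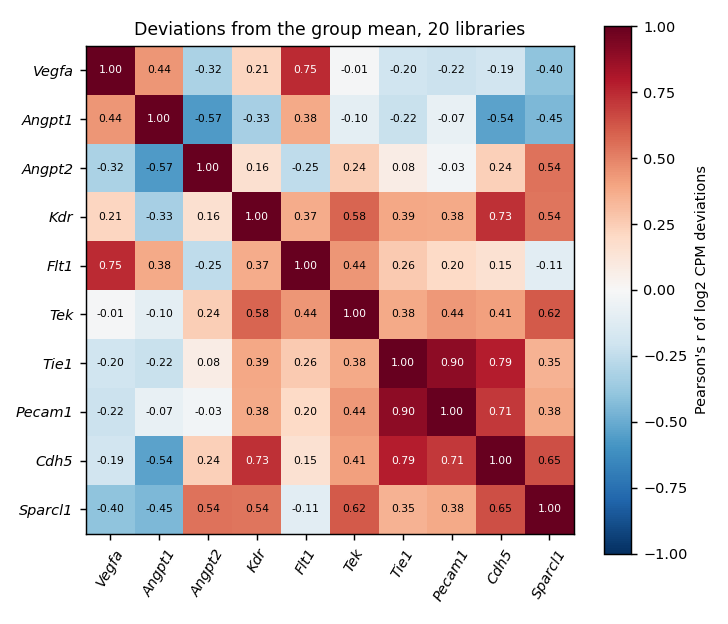
The matrix gives Pearson's r between members, from the deviations of log2 CPM from the group mean in 20 libraries, with red for positive and blue for negative values. Tie1, Pecam1 and Cdh5 form a red block with r from 0.71 to 0.90, Vegfa pairs with Flt1 at 0.75, and Angpt1 is blue against Cdh5 (-0.54) and Angpt2 (-0.57).

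On the same measure, the nearest of 16165 genes to each member were partly other endothelial genes. For Tie1 and Pecam1 they were each other and Ets1, an ETS transcription factor (r of 0.893 and 0.884), followed by Zfp36l1 (0.888) and 9430020K01Rik (0.879). For Cdh5 they were Hey1 (0.878), Dll4 (0.872) and Cd93 (0.838), a Notch target, a Notch ligand and an endothelial surface lectin. Angpt2 was nearest to Loxl4 (0.954), Ccdc152 (0.934) and Procr (0.916), and without MOV mimic 4 these were 0.806, 0.760 and 0.567. Kdr was nearest to Sdpr (0.859), Adck3 (0.827) and Pitpnc1 (0.826), Sparcl1 to Adm (0.812), Acox3 (0.811) and 1110021L09Rik (0.811), and Tek to ENSMUSG00000100291 (0.758), Rbpms (0.754) and Znrf2 (0.745). Vegfa was near to Mreg (0.859) and Nob1 (0.837), and Flt1 to Farsa (0.856) and 1810011O10Rik (0.819). Angpt1 was nearest to Hnrnph2 (0.895), ENSMUSG00000097534 (0.850) and Wars (0.848). Without the 4 low-marker libraries, r to Ets1 was 0.798 for Tie1 and 0.806 for Pecam1. Cdh5 was then at 0.754 to Hey1, 0.782 to Dll4 and 0.858 to Cd93. Kdr was at 0.792 to Sdpr, 0.586 to Adck3 and 0.655 to Pitpnc1. The r of the other members moved in both directions.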

How the data were processed

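RNA-seq of plantaris muscle was analysed in 20 libraries, 5 in each of 4 groups taken from the labels. The values deposited by the authors are raw read counts by Ensembl gene, with control and mimic libraries in separate tables. The submitters' processing notes name FastQC 0.11.9, cutadapt 4.4, Trim Galore 0.6.10, HISAT2 2.0.5, featureCounts 1.5.0-p3 and DESeq2 1.34.0. The paper's methods give GRCm38 as the build, and the annotation release and strand setting are not given in the sources used here.

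Here, counts were tested with edgeR 4.0.16 (TMM, filterByExpr, quasi-likelihood test, two-sided, Benjamini-Hochberg over all genes, threshold 0.05) on the 10 libraries compared, or on 20 for the interaction. DESeq2 1.42.0, other size factors, no filter, a replicate block, a shared fit and leaving out libraries were the alternatives. Symbols were matched for 32640 of 54532 genes and 159 of 162 list genes. Of the 40 pairs of libraries compared within groups, none was a copy. P-values measure the spread between muscles, and intervals and floors cover counting error only. Levels per kb used exon lengths of the GENCODE vM1 models.

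The members and lists were chosen with earlier results of these data known. Named were all members, genes of a list with an edgeR adjusted p under 0.05 in MOV control against sham control (none passed), and the 3 genes nearest to each member, of which some are not reported here. Outside this rule, list genes that DESeq2 called were named after their values were seen. The scripts were tested on simulated data in R 4.3.3.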

Additional observations from a re-analysis of the deposited data

Results flagged for a closer look

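Within groups of 5 libraries, 4 values among the 40 combinations of member and group lay farther from the others than Dixon's ratio of 0.71 allows, and chance flags about 1 in 20 groups. Tie1 had 41.8 CPM in sham control 4, against 30.0 to 31.8 in the other libraries of that group. Flt1 had 58.6 CPM in sham mimic 1, against 41.7 to 44.8. Cdh5 had 63.7 CPM in sham control 5, against 84.9 to 87.9. Vegfa had 237 CPM in MOV control 4, against 143 to 157.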

How the results depend on the processing

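In MOV control against sham control, edgeR called 1 gene of all and 0 members. The calls went to 388 genes and 3 members with no filter, to 913 and 4 with DESeq2, and to 36 and 1 (Sparcl1) with all 20 libraries in the fit. With the 4 low-marker libraries left out, an alternative chosen after seeing the data like the correlations without MOV mimic 4, 33 genes were called by edgeR, and by DESeq2 1056 genes and 3 members in this comparison and 66 and 2 in MOV mimic against sham mimic. Leaving out 1 library gave 0 to 426 genes and 0 to 2 members. These were 426 and 2 (Flt1 and Sparcl1) without sham control 3, 318 and 1 (Sparcl1) without MOV control 5, and 6 and 1 (Sparcl1) without MOV control 3. In MOV mimic against sham mimic, 0 genes and 0 members became 221 and 4 with DESeq2, 1 gene with no filter and 3 genes with all 20 libraries, and 0 to 101 genes and 0 to 1 member when 1 library was left out, with 101 and 1 (Tek) without MOV mimic 5. The count of members lower at an unadjusted p under 0.05 was 5 to 7 and 5 to 8 without 1 library, with 5 of 10 in the mimic comparison without sham mimic 5 or MOV mimic 3. In MOV mimic against MOV control, DESeq2 called 3 genes and the fit of 20 libraries 1, and the interaction had 1 gene in DESeq2. Members called stayed at 0 there and in sham mimic against sham control under every alternative run. The causes were not tested.

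With the replicate number as a block, edgeR called 1 gene in MOV control against sham control, 0 in the other comparisons and 0 members. DESeq2 with the block called 722 genes and 3 members in MOV control against sham control, 116 and 2 in MOV mimic against sham mimic, 127 and 0 in MOV mimic against MOV control, and 5 and 0 in the interaction. Sham and MOV were done on different mice, so in comparisons of MOV with sham the block joined unrelated mice. Equal numbers there correlated at a mean r of -0.0793 (control virus) and -0.0870 (mimic virus), against 0.0221 and 0.0233 for unequal numbers. Deviations of control and mimic libraries with the same number correlated at a mean r of 0.232 in sham (over 0.1 in 4 of 5) and 0.163 in MOV (3 of 5), against -0.0524 and -0.0398 for unequal numbers, and libraries correlated best with their own number in 2 of 5 (sham control), 3 of 5 (sham mimic), 3 of 5 (MOV control) and 5 of 5 (MOV mimic). These values lean towards numbers shared by the legs of a mouse, but not every pair was over 0.1 and the labels do not state it, so the fit without the block was kept. That fit treats the 2 legs of a mouse as independent in the comparisons of mimic with control virus and in the interaction. With the block, Flt1 in MOV mimic against MOV control was at 0.54 (adjusted p = 0.585 in edgeR and 0.273 in DESeq2) and Angpt1 at 0.22 (0.765 and 0.808). Both were higher in MOV mimic in 5 of 5 equal numbers. In sham mimic against sham control, Kdr was higher in 5 of 5 equal numbers, with a log2FC of 0.11 in edgeR without the block.

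Changes of sign were seen among members near 0. With the block, Tie1 went to 0.01 (edgeR) and 0.02 (DESeq2) in MOV mimic against MOV control, and Angpt2 to 0.03 and 0.04, Vegfa to 0.00 and 0.01 and Sparcl1 to -0.01 (edgeR) in sham mimic against sham control. Sparcl1 went to -0.01 with no filter and with 20 libraries in MOV mimic against MOV control, and to 0.01 (size factors, block, DESeq2) and 0.03 (DESeq2 with block) in the interaction. Vegfa was at 0.00 with size factors and with DESeq2 in sham mimic against sham control. Without the 4 low-marker libraries, Tie1 went to 0.19 (0.18 in DESeq2) and Angpt1 to -0.10 (-0.11 in DESeq2) in MOV control against sham control, Sparcl1 to -0.12 in MOV mimic against MOV control, Vegfa to 0.06 in sham mimic against sham control, and Kdr to -0.12 and Pecam1 to -0.15 in the interaction. Over fits without 1 library, the range was -0.23 to 0.08 for Tie1 and -0.08 to 0.16 for Angpt1 in MOV control against sham control. In MOV mimic against MOV control it was -0.19 to 0.10 for Tek, -0.22 to 0.10 for Tie1, -0.28 to 0.29 for Angpt2 and -0.07 to 0.16 for Sparcl1. In sham mimic against sham control it was -0.02 to 0.16 for Cdh5, -0.09 to 0.13 for Vegfa, -0.24 to 0.30 for Angpt2 and -0.09 to 0.06 for Sparcl1. In the interaction it was -0.30 to 0.31 for Angpt2 and -0.07 to 0.14 for Sparcl1.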
